A study of Danio rerio with 9 samples.

Results

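The Period genes of zebrafish are per1a, per1b, per2 and per3 (also written zPer1a, zPer1b, zPer2 and zPer3). They were followed through every array probe whose RefSeq accession belongs to one of them, which gave 8 probes, 2 for each of the 4 genes, out of 43603 probes that are not controls, among them 26094 probes of 13443 named genes. The 8 probes are treated one by one below, since a probe's brightness cannot be set against that of another probe. PER proteins are repressors of the circadian clock. Bound to CRY proteins, they enter the nucleus and inhibit the CLOCK:BMAL activator, which itself drives E-box genes such as some Per and Cry genes, and casein kinases mark PER for degradation. In zebrafish per2 is known as a light-inducible member, whereas per1a, per1b and per3 are known as genes of the CLOCK:BMAL loop.

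RNA came from the whole body of larvae at 6 days post fertilization (dpf), raised without light from fertilization on, which were then left in darkness or given 3-h light or 12-h light. Larvae were wild type (WT), zPer2 zCry1a double KO (DKO) or zPer2 zCry1a zCry2a triple KO (TKO), so there were 9 conditions with 1 array each. zPer2 and zCry1a had been disrupted with TALEN and zCry2a with CRISPR-Cas9, by nonsense mutations in exons, and DKO and TKO therefore share the loss of zPer2 and zCry1a. DKO larvae were sampled at 12 h after light onset, when those given the short light were back in darkness. The sampling time of WT and TKO larvae and how many larvae went into a sample are not given in the sources used here. A nonsense mutation need not remove a transcript, and where the probes lie relative to the mutated exon of zPer2 is not known, so the per2 probes do not check the knockout.

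Arrays of each genotype lay on a slide of their own, so genotype and slide cannot be told apart, and each lighting lay at the same slide position in all genotypes except 12-h light in DKO, so lighting and position cannot be told apart either, apart from that array. Between 85.9% and 89.8% of the spots on an array were well above background. The array of TKO larvae in darkness stood apart from the rest: its highest correlation with any other array was 0.984, against at least 0.994 for the others. Of 10 organ markers, 8 had a probe and were well above background on 9 of 9 arrays, and on the TKO array in darkness the neuronal gene elavl3 and aanat2, an enzyme of melatonin synthesis in the pineal gland, were 0.86 lower each, and the liver gene fabp10a 0.62 and the heart gene myl7 0.94 higher (log2) than the median of the other arrays. On the WT array at 12-h light, on which most differences below rest, aanat2 was 1.56 above the median of the others and 1.49 above WT in darkness, and the other 7 markers lay between -0.40 and 0.36 of that median. The paper counts aanat2 among the clock-controlled genes and reports less of its mRNA in both knockouts than in WT. The part of these shifts in the Period values was not tested. In whole-body RNA fewer cells of a type and less RNA per cell cannot be told apart.

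Signals are given as a percentage of the 75th percentile of all probes on the same array. The error after ± is the one that Agilent's software estimated for the spot and holds no variation between larvae. Spots of the same probe on the same array varied by 0.14 (SD, log2), over 36 probes spotted more than once and well above background on all arrays. Carried over to a ratio of a pair of arrays this gives 0.199, the spread between spots used below. It holds no variation between arrays. The software's error can be larger at dim probes, as with 0.34 (log2) for 12-h light against darkness in WT at the per1a probe A_15_P744906. Tests are those of limma with terms for genotype and lighting over all 9 arrays, in which the replicates of a lighting are the 3 genotypes, and p-values were adjusted over 39143 probes. In a comparison of genotypes the replicates are the 3 lightings. The p-values thus measure the spread between single arrays that is left after both terms. That spread includes differences of the light response between genotypes, and it is not a spread between repeats of a condition.

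The widest light-dependent fall belonged to per1b, and on the single arrays it was several times larger in WT than in the knockouts. At its bright probe, A_15_P104502, WT larvae had 513% ± 51.3 of the 75th percentile in darkness, 294% ± 29.4 at 3-h light and 56.9% ± 5.69 after 12-h light. In DKO larvae the same probe gave 515% without light, 489% at 3-h light and 261% under 12-h light. In TKO larvae it gave 559%, 751% and 308% in the same order. The WT array at 12-h light was the lowest of the 9, far below the next, and TKO at 3-h light was the highest. The 3 dark arrays and DKO at 3-h light were neighbours that did not differ beyond the spread between spots. WT at 3-h light lay between DKO and TKO at 12-h light and within that spread of either, while DKO and TKO at 12-h light differed by slightly more. At the dim probe WT at 3-h light was within the spread of TKO at 12-h light but above DKO at 12-h light by more than it.

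Set against darkness of the same genotype, per1b was 9.01-fold lower at 12-h light in WT, 1.97-fold lower in DKO and 1.82-fold lower in TKO. The dim probe of the gene, A_15_P658736, gave the same order: in WT it gave 6.65% without light, 4.37% at 3-h light and 0.917% at 12-h light, where it was not well above background, which makes the fall at least 7.24-fold. In DKO it went from 6.44% in darkness to 3.49% at 12-h light, a 1.85-fold difference, and in TKO from 7.12% to 4.20%, a 1.70-fold difference. Both per1b probes followed each other closely, with Pearson's r of 0.998 over the 9 arrays and 0.993 over the 8 arrays without WT at 12-h light.

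**Figure D1:**
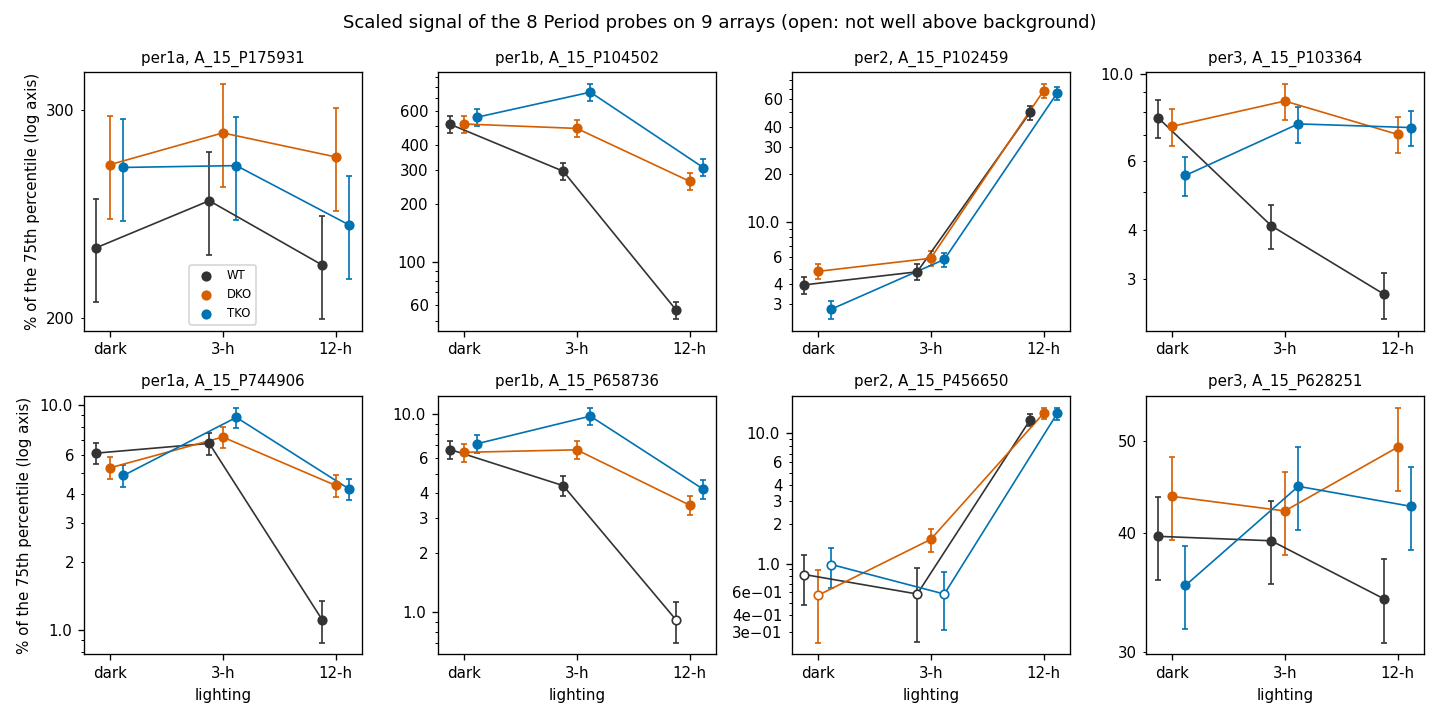
Scaled signal of each Period probe (vertical log axis, % of the array's 75th percentile) in darkness, 3-h light and 12-h light (horizontal axis) for WT, DKO and TKO, with 1 array a point, the spot error of the scanner software as bars, and open points where the spot was not well above background. In WT both per1b probes and the upper per3 probe are lower the longer the light, the per1a probe in the lower row is low only at 12-h light, and both per2 probes rise at 12-h light in all 3 genotypes.

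per1a gave a different picture at its 2 probes. The bright probe, A_15_P175931, stayed between 222% and 287% on all 9 arrays, and no array differed from its neighbour in the order by more than the spread between spots. Such small steps do not show that the arrays were alike. The lowest, WT at 12-h light, and the highest, DKO at 3-h light, differed by 0.37 (log2). These arrays are the extremes of 9, so the spread of a single ratio cannot judge their difference. Only 9.6% of all tested probes had a narrower range over the arrays. The dim probe, A_15_P744906, gave 6.11% ± 0.669 in darkness and 6.74% ± 0.727 at 3-h light in WT, and then 1.11% ± 0.232 at 12-h light, 5.50-fold below darkness. DKO larvae had 5.25%, 7.20% and 4.39% in that order, and TKO larvae had 4.86%, 8.80% and 4.23%. WT at 12-h light was thus alone at the bottom, while the other 8 arrays lay between 4.23% and 8.80%, with 3-h light the highest lighting in each genotype. Against darkness, 3-h light was 0.14 higher (log2) in WT, which is within the spread between spots, and 0.45 higher in DKO. The 0.86 in TKO rests on the dark array that stood apart. Pearson's r between the probes was 0.618 over 9 arrays and 0.194 over the 8 without WT at 12-h light. Which transcripts each probe detects is not known, so the low per1a value at 12-h light rests on 1 dim probe on 1 array.

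per3 also differed between its probes, in the size of the differences and in the order of the arrays. At the dim probe, A_15_P103364, WT larvae gave 7.73% ± 0.842 in darkness, 4.10% ± 0.531 at 3-h light and 2.74% ± 0.369 after 12-h light. These light arrays of WT were the lowest 2 of all 9, 1.88-fold and 2.82-fold below WT in darkness. DKO larvae gave 7.35%, 8.53% and 7.02% in the same order, and TKO larvae 5.51%, 7.46% and 7.30%. Neither knockout fell below its own darkness by more than the spread between spots. From 3-h to 12-h light DKO had a log2 ratio of -0.28, which is beyond that spread and slightly beyond the software's error of 0.21. At the brighter probe, A_15_P628251, the same WT arrays went from 39.7% in darkness to 39.3% and 34.1%. All 9 arrays lay between 34.1% and 49.2%, with no neighbours in the order differing by more than that spread. Such small steps do not show that the arrays were alike. The lowest, WT at 12-h light, and the highest, DKO at 12-h light, differed by 0.53 (log2). As extremes of 9 arrays they cannot be judged by the spread of a single ratio either. A narrower range over the arrays was found at 24.2% of all tested probes. The probes had a Pearson's r of 0.709 over the 9 arrays and of 0.485 without WT at 12-h light.

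per2, one of the genes mutated in both knockout lines, went the other way. At A_15_P102459 all 6 arrays in darkness or at 3-h light lay between 2.78% and 5.86%, and the 12-h light arrays gave 49.6% ± 4.96 in WT, 68.2% ± 6.82 in DKO and 65.8% ± 6.58 in TKO. There was no overlap between 12-h light and the other lightings, and DKO and TKO at 12-h light did not differ beyond the spread between spots. The lowest of all was the TKO array in darkness at 2.78%, the array that stood apart, and the 2.07-fold ratio of 3-h light to darkness in TKO rests on it, compared with 1.21-fold in WT and 1.21-fold in DKO. At A_15_P456650 the signal was 12.7% in WT, 14.3% in DKO and 14.2% in TKO at 12-h light, and elsewhere it was well above background only in DKO at 3-h light, at 1.53%. This probe was tested only because of those 4 arrays, and its ratios of 12-h light to darkness are bounds: at least 10.5-fold in WT, 12.7-fold in DKO and 12.9-fold in TKO.

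**Figure D2:**
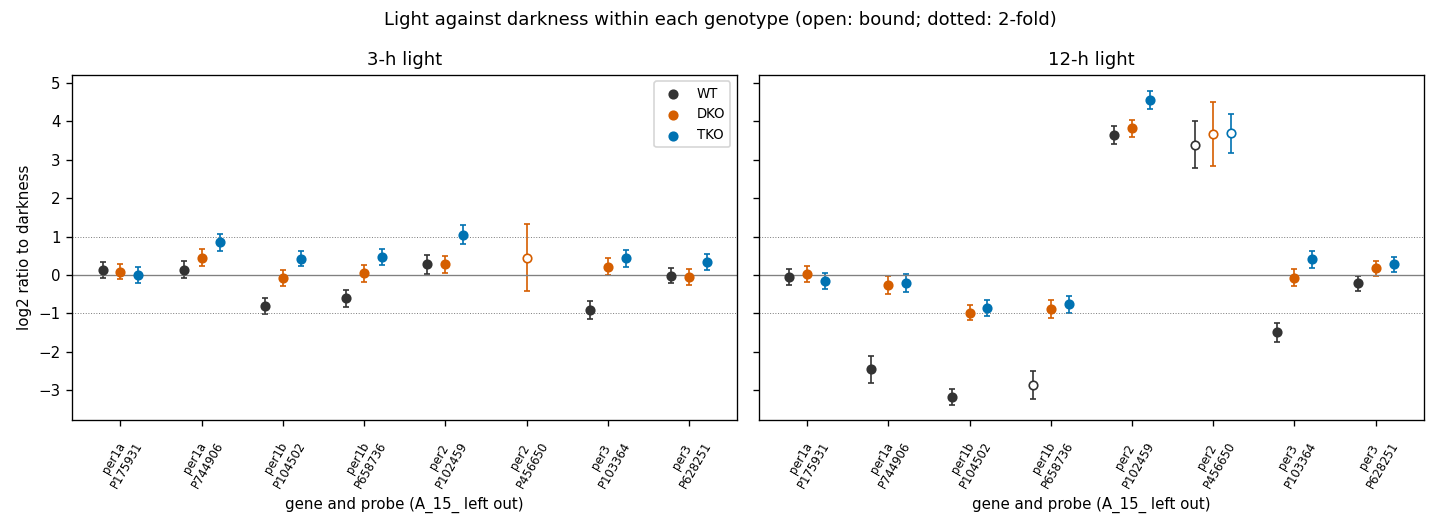
Log2 ratio of 3-h light (left) and 12-h light (right) to darkness of the same genotype for the 8 Period probes (horizontal axis), with the combined spot error as bars, open points for bounds and dotted lines at 2-fold. At 12-h light the WT points of both per1b probes, of 1 per1a probe and of 1 per3 probe lie between -3.17 and -1.49, whereas the DKO and TKO points of these probes lie between -0.98 and 0.41.

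Counted at 2-fold, 4 of the 8 Period probes were lower and 2 higher at 12-h light than in darkness in WT, where 1.2% of all 38812 probes compared were lower by that measure and 1.09% higher (2.29% in either direction). In DKO 0 were lower and 2 higher, against 2.9% of all probes in either direction, and in TKO also 0 and 2, against 7.9%. At 3-h light 0 of 7 Period probes were past 2-fold in WT (1.31% of all probes), 0 of 8 in DKO (0.825%) and 1 of 7, the per2 probe, in TKO (6.23%). In DKO at 3-h light the ratio of A_15_P456650 is a bound, at least 1.37-fold, so whether it is past 2-fold is not known. All these are comparisons of single arrays and have no replicate check.

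Over all genotypes, limma called 4 of the 8 Period probes between 12-h light and darkness, 2 higher and 2 lower, where 24.2% of all probes were called, 14.5% higher and 9.67% lower. per2 rose by 4.01 ± 0.18 (log2 ± SE, adjusted p = 0.000289 in limma) at A_15_P102459. At A_15_P456650 the 12-h light arrays were at least 12.0-fold above darkness on average over the genotypes, but this probe passed the filter on dim probes through the arrays where it is high, so its call is no support. per1b fell by 1.67 ± 0.42 (log2 ± SE, adjusted p = 0.0315 in limma) at A_15_P104502 and by 1.50 ± 0.38 (adjusted p = 0.0319) at A_15_P658736. These fits average a large WT change and smaller knockout changes. Both per1b calls were lost when any of 5 arrays was left out, WT in darkness, WT at 3-h light, DKO in darkness, DKO at 12-h light or TKO at 12-h light, with adjusted p between 0.0538 and 0.0676 in limma, and the call at A_15_P658736 was also lost without DKO at 3-h light (adjusted p = 0.0505). Without the WT array at 12-h light the falls were 1.08 ± 0.26 and 0.97 ± 0.23 (log2 ± SE, limma adjusted p = 0.0493 and 0.0486). The other probes did not pass the test: the dim per1a probe had a log2 difference of -0.97 (limma adjusted p = 0.131), the dim per3 probe one of -0.39 (adjusted p = 0.392), and the bright per1a and per3 probes differences of -0.06 and 0.08. Leaving out 1 array gave from -1.34 to -0.32 (log2) at the dim per1a probe, with the smallest difference without WT at 12-h light, and from -0.71 to 0.10 at the dim per3 probe, which turned positive without WT in darkness.

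Without the TKO array in darkness, the 12-h light difference was 3.74 (log2) for per2 at A_15_P102459, -2.02 and -1.81 for the per1b probes, and the same 4 probes were called by limma. Between 3-h light and darkness 0 of the 8 Period probes were called, against 8.41% of all probes. An earlier rise could be missed here, at least in DKO, where larvae given 3-h light were back in darkness when sampled. At an unadjusted p under 0.05 in limma, where 13400 of all 39143 probes were, there was 1 Period probe. It was per2 at A_15_P102459 with 0.53 ± 0.18 (log2 ± SE, limma adjusted p = 0.0999). This difference was 0.27 without the TKO array in darkness (adjusted p = 0.0687) and 0.12 after normexp background correction. Between 12-h and 3-h light 0.445% of all probes were called, and the Period probes among them were both of per2. A_15_P102459 was higher at 12-h light by 3.47 ± 0.18 (log2 ± SE, limma adjusted p = 0.00121). At A_15_P456650 WT and TKO at 3-h light were not well above background, so the ratios are bounds of at least 10.4-fold and 15.4-fold, beside a measured 9.31-fold in DKO, and its call, lost without any of 5 arrays, is no support. The per1b probes were 1.52 and 1.47 lower (log2) at 12-h than at 3-h light with limma adjusted p of 0.317 and 0.281.

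**Figure D3:**
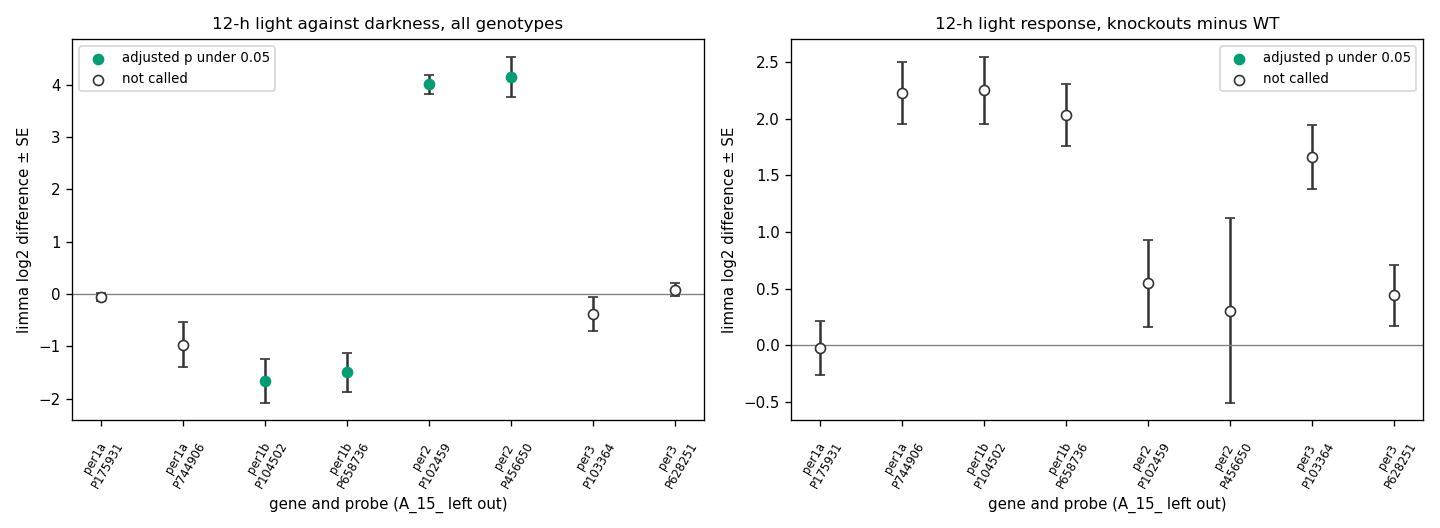
Log2 differences from limma with their standard errors as bars for the 8 Period probes (horizontal axis): 12-h light against darkness over all genotypes (left) and the 12-h light response of the knockouts minus that of WT (right), filled where the adjusted p was under 0.05. Both per2 probes and both per1b probes are filled on the left and none on the right, where 4 probes of per1a, per1b and per3 lie between 1.66 and 2.25. The per2 probe A_15_P456650 passed the filter on dim probes through the arrays where it is high, so its call is no support.

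Whether the light response itself differed between knockouts and WT was tested with a further limma model, chosen after seeing the data, in which DKO and TKO share one light response and the spread comes from the difference between these knockouts on 2 residual degrees of freedom. In the knockouts the response to 12-h light lay above that of WT by 2.25 ± 0.29 and 2.03 ± 0.28 (log2 ± SE) at the per1b probes. The difference was 2.23 ± 0.28 at the dim per1a probe and 1.66 ± 0.28 at the dim per3 probe. After adjustment over 39140 probes 0 of the 8 Period probes and 0% of all probes were called (limma adjusted p of 0.478, 0.503, 0.406 and 0.836 for the probes just named). On simulated arrays, with the spread of the model of genotype and lighting, this test recovered 0 of 100 2-fold and 51 of 100 4-fold differences. The absence of calls therefore does not show equal responses. At an unadjusted p under 0.05 there were 4 of 8 Period probes, and 2.74% of all probes. For per2 the difference was 0.55 ± 0.39 at A_15_P102459, and for the bright probes of per1a and per3 it was -0.02 ± 0.24 and 0.44 ± 0.27. For 3-h light the differences were 0.98 and 0.86 at the per1b probes and 1.24 at the dim per3 probe, with a limma adjusted p of 0.9999 for each, 3 of 8 at an unadjusted p under 0.05 and 2.25% of all probes so (0.00255% of all probes called). The WT response in this model comes from 1 array a lighting and has no spread of its own. With 1 knockout array left out, 1 residual degree of freedom remained in this model, so only the sizes of the differences are given for these fits. At 12-h light they were between 2.10 and 2.41 (log2) at the bright per1b probe and between 1.90 and 2.17 at the dim one. At the dim per1a probe they were between 2.11 and 2.34, and at the dim per3 probe between 1.48 and 1.84. After normexp background correction, which compresses dim probes, the 12-h difference was 2.18 at the bright per1b probe but 0.40, 0.49 and 0.43 at the dim probes of per1b, per1a and per3.

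Knockout larvae were then set against WT larvae under each lighting. In darkness the 7 Period probes that could be compared lay within 0.285 (log2) of WT in DKO and within 0.512 in TKO, and 0 of them were past 2-fold, where 3.17% and 7.62% of all probes were. At 3-h light the dim per3 probe was 2.08-fold higher in DKO (2.88% of all probes past 2-fold) and both per1b probes were 2.55-fold and 2.24-fold higher in TKO (2.88%). At 12-h light 4 of 8 probes were past 2-fold in both knockouts and all 4 were higher. Of all probes 4.17% were past 2-fold in DKO, 2.88% higher, and 3.68% in TKO, 2.42% higher. per1b was 4.59-fold higher in DKO and 5.41-fold higher in TKO at its bright probe, and at least 3.80-fold and 4.57-fold higher at its dim probe. The dim per1a probe was 3.95-fold and 3.81-fold higher, and the dim per3 probe 2.56-fold and 2.66-fold higher. per2 was 1.38-fold higher in DKO and 1.33-fold higher in TKO. All these ratios share the WT array of the same lighting.

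**Figure D4:**
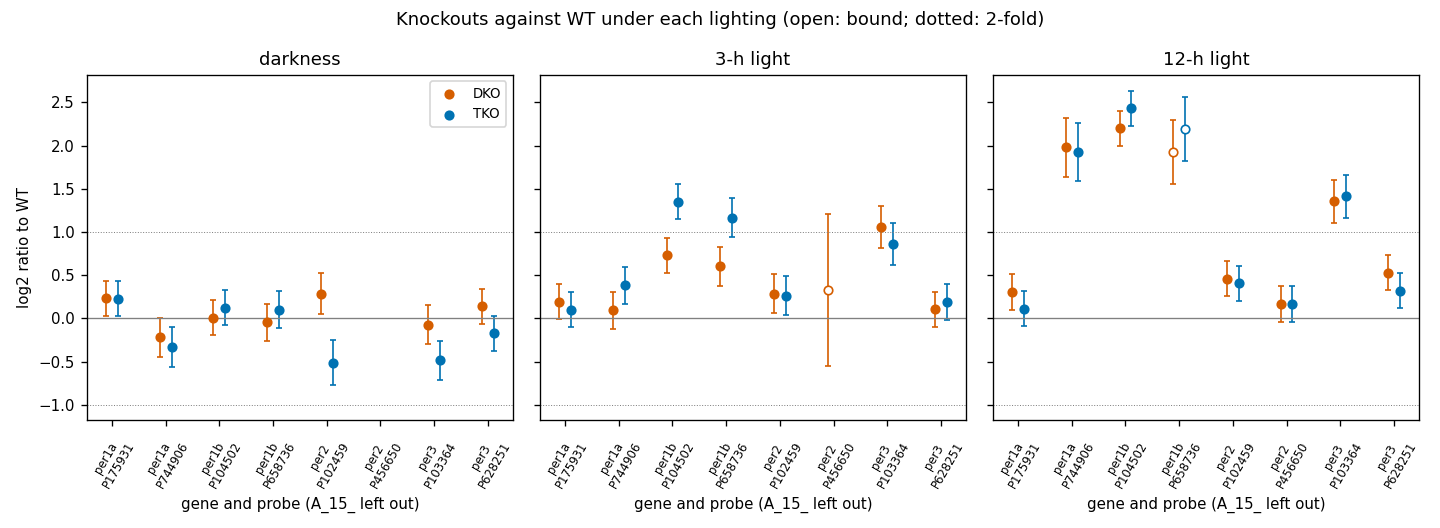
Log2 ratio of DKO and of TKO to WT in darkness (left), at 3-h light (middle) and at 12-h light (right) for the 8 Period probes (horizontal axis), with the combined spot error as bars, open points for bounds and dotted lines at 2-fold. In darkness no point is past 2-fold, and at 12-h light the points of per1b, of 1 per1a probe and of 1 per3 probe lie between 1.35 and 2.43.

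Averaged over lightings, limma called 0 of the 8 Period probes between DKO and WT (12.9% of all probes called), 0 between TKO and WT (24.3%) and 0 between TKO and DKO (1.34%). At an unadjusted p under 0.05 in limma, where 10876, 15802 and 8149 of all 39143 probes were, there were 2, 2 and 0 of the 8 Period probes. All 8 were higher than WT in both knockouts, from 0.24 to 0.98 (log2) in DKO and from 0.05 to 1.30 in TKO, but leaving out 1 array turned the sign for the dim per1a probe (-0.04) and A_15_P456650 (-0.22) in DKO and for per2 at A_15_P102459 (-0.10) and A_15_P456650 (-0.14) and the brighter per3 probe (-0.01) in TKO. The nearest to a call was per1b in TKO with 1.30 ± 0.42 (log2 ± SE, limma adjusted p = 0.062) at A_15_P104502. Without the WT array at 12-h light this was 0.72 (adjusted p = 0.118 in limma), and the DKO value of 0.98 was 0.39 (adjusted p = 0.471). Without the WT array in darkness both per1b probes and the dim per3 probe were called higher in DKO and in TKO. In that fit 3043 and 3943 of all 39143 probes were called. Without the TKO array in darkness per2 at A_15_P102459 was called in both comparisons (limma adjusted p = 0.0131 and 0.0269). The same fit called the bright per1a probe in DKO against WT (0.24, adjusted p = 0.0239) and per1b at A_15_P104502 in TKO against WT (1.65, adjusted p = 0.0496). It also called 10922 and 10518 of all 39143 probes in these comparisons, so calls were common there. Between TKO and DKO 0 Period probes were past 2-fold in darkness, at 3-h light or at 12-h light, where 5.76%, 1.03% and 1.2% of all probes were. The farthest apart among the measured ratios was per2 at A_15_P102459 in darkness, with a log2 ratio of -0.80, which rests on the TKO array that stood apart. At 3-h light A_15_P456650 was at least 1.66-fold lower in TKO. That ratio is a bound, so whether it is past 2-fold is not known.

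The genes most like each Period gene over the 9 arrays were sought among 12510 genes well above background on every array, at each Period gene's brightest probe. Each of the other genes was taken at its most correlated probe, so its r is a maximum over its probes. For per1b they were cry1b, a CRY repressor, with r of 0.977, followed by pdca and slc1a8b with 0.951 each. In WT their log2 ratios of 12-h light to darkness were -0.91, -1.18 and -2.27, and in the knockouts none was below -0.53. The cry1b probe here is a dimmer one than that used for cry1b in the clock list below. For per2 they were lonrf1 (r of 0.994), cry5, a DNA photolyase of the cryptochrome family (0.991), and chia.2, a chitinase (0.988), which were 2.21, 2.85 and 1.15 higher (log2) at 12-h light than in darkness in WT. The list for per1a was pknox1.1, ppifb and taf1b (r from 0.943 to 0.974). That for the brighter per3 probe was relch, inhbaa and sap130a (r from 0.968 to 0.973). Both lists follow signals that spanned at most 0.53 (log2). That range is narrower than at every other Period probe, so the spread between spots weighs more in these lists. Each r is a description over 9 points that share slides and scaling, and no p was computed.

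Other genes of the clock were counted from a list of 47 genes, of which 40 had a probe and 38 were tested, each at its brightest probe. Between 12-h light and darkness limma called 16 higher and 0 lower, and 22 were not called, where 14.5% of all probes were called higher and 9.67% lower. Their median log2 difference was 0.35, and that of all probes 0.09. Among the CRY genes of the list, 3 of 5 rose: cry3b, the gene of zCry2b, by 3.93 ± 0.13 (log2 ± SE), cry1a by 2.15 ± 0.16 and cry3a, the gene of zCry2a, by 1.94 ± 0.11, with limma adjusted p from 9.85e-05 to 0.00132. cry1b had a difference of -0.38 and cry2 one of -0.04, and neither passed the test. The repressors that the paper names are zCry1a, zCry1b, zCry2a and zCry2b, so no repressor role is meant here for cry2. Of the CLOCK and BMAL activators, which PER and CRY inhibit, 5 of 6 rose, from 0.42 for bmal1a to 0.88 for bmal2. The REV-ERB and ROR receptors, which act on BMAL promoters, had 3 of 9 higher.

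The D-box factors, which in zebrafish are tied to light induction of per2 as well as to clock output, had 3 of 9 called, all higher: nfil3-6 by 1.32 ± 0.11 (log2 ± SE), nfil3-5 by 1.20 ± 0.12 and nfil3 by 0.66 ± 0.10. For tefa, hlfb and hlfa the differences were 0.52, 0.38 and 0.28, and for tefb, dbpa and dbpb -0.29, -0.34 and -0.49, with limma adjusted p from 0.0836 to 0.268. nfil3-3 and nfil3-4 were too dim to test. Of the kinases and ligase subunits that govern PER and CRY turnover, csnk1e and fbxl3a rose by 0.39 ± 0.08 and 0.54 ± 0.09, and csnk1da, csnk1db, fbxw11a, fbxw11b and fbxl3b had differences between -0.02 and 0.11. Neither of the 2 E-box repressors tested, bhlhe40 and bhlhe41, passed the test.

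On the single arrays, 38 of the 40 clock genes could be compared between 12-h light and darkness. In WT 2 were at least 2-fold lower and 7 higher, against 1.2% and 1.09% of all probes. In DKO 0 were lower and 7 higher (1.66% and 1.24% of all probes), and in TKO 0 and 6 (5.83% and 2.07%). The 2 lower genes were dbpb, with a log2 ratio of -1.33 in WT, -0.44 in DKO and 0.30 in TKO, and cry2, with -1.10, 0.29 and 0.69. bhlhe40 had -0.94, 0.69 and 0.60, and nr1d1, which encodes a REV-ERB receptor, had -0.83, 0.59 and 1.21. cry1b had -0.997, 0.08 and -0.23. For the difference in response between knockouts and WT, limma called 0 of 38 clock genes, in a test that recovered 0 of 100 simulated 2-fold and 51 of 100 simulated 4-fold differences.

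**Figure D5:**
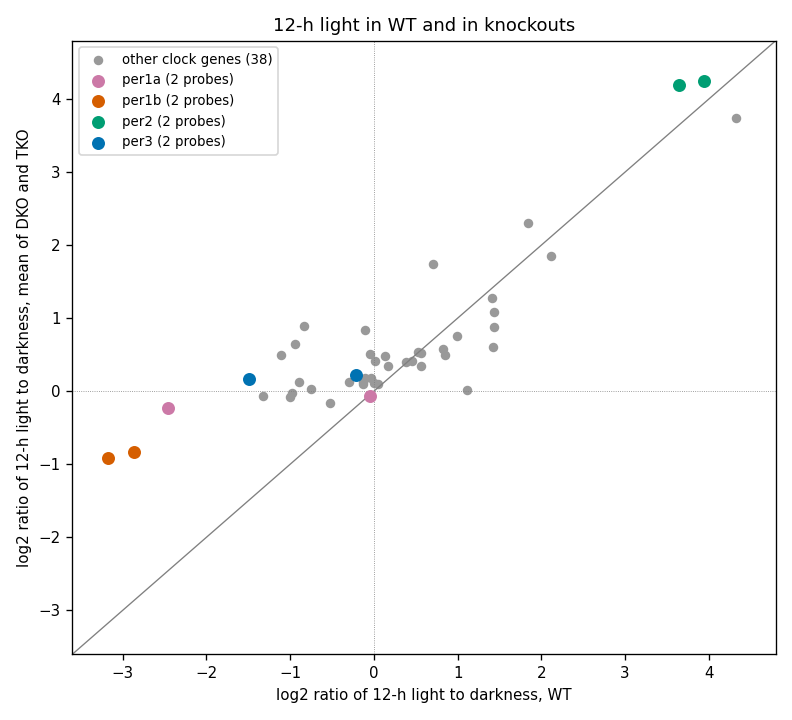
Log2 ratio of 12-h light to darkness in WT (horizontal axis) against the mean of the DKO and TKO ratios (vertical axis), both without a floor on dim signals, for the 8 Period probes in colour and 38 other clock genes in grey, with the line of equal ratios. Both per2 probes lie near that line, whereas both per1b probes, 1 per1a probe and 1 per3 probe lie above it on the left, where the WT ratio is the lowest and the knockout ratios are nearer to 0.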

How the data were processed

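The authors extracted RNA with Trizol, labelled it with Cy3 and read 1-colour Agilent arrays with Feature Extraction 11.5.1.1; the deposited intensity of a spot is that software's processed signal, background-subtracted and not normalized between arrays. The uncorrected median and background intensities were deposited too, as were flags (score 0 or 1) for spots well above background and for outliers. A deposited table holds the same intensities multiplied by 1 constant per array. The paper's methods name another array software than the file headers. Log2 values were computed here from the deposited intensities, minus each array's 75th percentile, with spots of a probe averaged and 1 to 8 outlier spots per array left out. Names came from RefSeq accessions through a gene table of GRCz12tu, which gave 26094 of 43603 probes 1 symbol. No probe or genome sequence was used here, so none is shown.

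In ratios of single arrays, dim signals were raised to a floor, the array's lowest signal well above background, which makes the ratio a bound. A mean rise is written as at least N-fold when the dim group's mean used that floor. Tests used limma 3.58.1 in R 4.3.3 on probes that were well above background on 3 or more of 9 arrays, with 4 residual degrees of freedom, and a Benjamini-Hochberg adjusted p under 0.05. Other values used Python 3.11.15, numpy 2.4.6 and pandas 2.3.3. The scripts were tested on simulated data. With 1 array per condition, the number of arrays limits the precision. All Period probes are named; other genes are those of the clock list and the 3 most correlated genes for each Period gene, and further clock genes were chosen after their values were seen. The members and lists were chosen with earlier results of these data known. Of the 54 names in the clock list 7 are older names of listed genes, and 7 genes matched no probe. Alternatives were other normalizations, normexp (offset 50), other filters, limma with trend and robust fitting, array weights, other fold thresholds and leaving out each array.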

Additional observations from a re-analysis of the deposited data

Results flagged for a closer look

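In 5 comparisons a Period probe moved one way with light in WT and the other way in a knockout, by more than the spread between spots, on 1 array each; these opposite directions were not tested one by one. At 3-h light the log2 ratio of per1b to darkness was -0.80 in WT and 0.43 in TKO at A_15_P104502, and -0.61 and 0.46 at A_15_P658736. The dim per3 probe, A_15_P103364, had -0.91 in WT, 0.21 in DKO and 0.44 in TKO at 3-h light, and -1.49 in WT and 0.41 in TKO at 12-h light. The brighter per3 probe, A_15_P628251, had -0.22 in WT and 0.28 in TKO at 12-h light. All the TKO ratios rest on the dark array that stood apart from the other 8.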

How the results depend on the processing

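The count of Period probes called between 12-h light and darkness, 4, was 2 among probes well above background on all arrays, which leaves 6 Period probes, and 2 to 4 when 1 array was left out. Of all probes, 10284 of 36497 were called under that filter, and 1994 to 10575 of 39143 with 1 array left out. The count of 2 between 12-h and 3-h light was 1 under that filter (221 of all 36497 probes) and 1 to 2 with an array left out (17 to 533 of all 39143). The main counts of 4 and 2 both include A_15_P456650. It passed the main filter on dim probes through the arrays where it is high, so its call is no support. Array weights gave 1 call for 3-h light, 2 for DKO against WT and 4 for TKO against WT, where there had been 0. Of all 39143 probes, array weights called 11017, 11914 and 15904 in these comparisons, so calls were common there. Normexp gave 1 for DKO against WT and 1 for TKO against WT (7170 and 10825 of all 39143 probes). For TKO against WT the filter on all arrays gave 1 (9647 of all 36497) and the trend and robust options gave 2 (10349 of all 39143). Leaving out 1 array gave 0 to 3 for DKO against WT (2225 to 10922 of all 39143 probes) and 0 to 3 for TKO against WT (3249 to 10518). For the difference in the 12-h light response, chosen after seeing the data, no counts are given with a knockout array left out. Too few arrays remained there for a spread, and a WT array cannot be left out of that fit. Ratios of Period probes past 2-fold numbered 11 of 46 for light and 11 of 45 for knockouts. Of all probes, between 0.825% and 7.9% were past 2-fold in a single comparison of light with darkness. Between 2.88% and 7.62% were so in a single comparison of a knockout with WT. The Period counts were 6 and 3 after normexp, whose offset compresses dim probes (the 12-h light difference of per2 was then 2.39 and 1.02 on the log2 scale). They were 19 for light at 1.5-fold, and 6 for knockouts at 3-fold. No share of all probes is given at these other settings, so these counts cannot be set against the other probes. No result turned its direction while called. The cause was not tested. Lightings were compared within genotypes, since the model has a term for genotype; no block by replicate number was possible because each group has 1 array.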
